A study of Mus musculus with 12 samples.

Results

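Potassium channel genes were defined as every gene whose symbol begins with Kcn, except Kcnj8 and Kcnj11, with a mean of at least 10 RSEM expected counts (reads assigned to a gene) over the 12 libraries. That rule found 43 genes among 87 of the name and 17471 genes listed in all. It averages raw counts over every library, and the MI libraries were the deeper ones, so it admits genes high after MI more readily than genes high after sham. Kcnab1, Kcnc2, Kcnd1, Kcne1l, Kcnj14, Kcnk13, Kcnk5 and Kcnn4, 8 of the 43, averaged under 10 counts in sham libraries and at least 10 after MI, and 0 of the 43 did the reverse. The rises of Kcnd1, Kcnj14, Kcnk13 and Kcnn4 and every count of rising members below are to be read with that. The other 44 Kcn genes fell under the minimum, the nearest being Kcne3 with a mean of 9.25 counts, Kcnab3 with 8.33, Kcnc1 with 8.27 and Kcnma1 with 6.38. Just inside it stood Kcnc2 with 10.1 counts and Kcne1l and Kcnq5 with 12.4 each. All 43 passed the filter on low counts of the statistical fit.

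The libraries were made from whole left ventricle of mice aged 6 to 10 weeks. Tissue was taken on day 4 after sham surgery or after the left anterior descending artery had been tied off for good, which infarcts the myocardium (MI). Every mouse carried floxed Yap alleles and ate a diet with tamoxifen citrate from surgery on, controls included. Cre-positive mice had a copy of MerCreMer, a tamoxifen-dependent recombinase, in the endogenous periostin (Postn) locus, a gene of activated fibroblasts. Cre-negative mice were their siblings with wildtype periostin. The 4 groups, Cre-negative sham, Cre-negative MI, Cre-positive sham and Cre-positive MI, held 3 libraries each. Recombination was thus directed at myofibroblasts, while the RNA came from all cells of the ventricle. The labels number the replicates and say no more about them, so p-values measure the spread between these samples.

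Potassium channels let potassium leave a cell, or in the case of inward rectifiers hold its resting potential near the potassium equilibrium, and so end the action potential of heart muscle. Voltage-gated pore subunits open on depolarisation and carry the transient outward and delayed rectifier currents, while accessory subunits set their number at the membrane and their kinetics. In the mouse ventricle the fast transient outward current, built from Kcnd2, Kcnd3 and Kcnip2 products, dominates early repolarisation, and its loss is a familiar feature of diseased myocardium. Other family members are known from immune cells, fibroblasts, vessels and glia, where they set membrane potential and calcium entry.

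Total expected counts per library ranged from 10257675 to 15176286, and 3 counts, taken as the floor of detection, corresponded to between 0.198 and 0.292 CPM (counts scaled to library size). Cre-positive sham replicate 2 stood apart from the other libraries on the second principal component, at 57.8 against a range of -21.4 to 14.7. Yap1, the floxed gene, averaged 92.6 CPM in Cre-positive and 91.7 CPM in Cre-negative hearts after MI (log2 fold change 0.02 ± 0.09 SE, adjusted p = 0.971). Summed CPM of 10 cardiomyocyte markers ran from 103000 to 118000 in sham and 44200 to 61200 in MI libraries of Cre-negative hearts, and from 69900 to 127000 and 62500 to 74200 in those of Cre-positive hearts. Over the same groups 8 macrophage and monocyte markers summed to 274 to 312, 1690 to 1870, 88.3 to 298 and 1250 to 1400 CPM, and no marker of either list was at 0 in all libraries. In whole ventricle, fewer cells of a type and less RNA per cell cannot be told apart, and the part of the changing marker levels in the results below was not tested.

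Levels of different genes were compared only as deposited FPKM, which is scaled to transcript length. Over the 6 sham libraries Kcnk3 was the most abundant member at 148 ± 23 FPKM (SD, n = 6), followed by Kcnip2 at 125 ± 31.5 FPKM (SD, n = 6), and the spreads of these genes overlapped. Kcng2 came next at 57.5 ± 5.97 FPKM (SD, n = 6) and Kcnh2 at 39.5 ± 5.69 FPKM (SD, n = 6). Below them Kcnj5 at 28.2 ± 6.13 FPKM (SD, n = 6), Kcnq1 at 24.6 ± 3.43 FPKM (SD, n = 6) and Kcnj3 at 24.5 ± 3.34 FPKM (SD, n = 6) could not be ordered beyond their spread. Kcnj12 had 17.2 ± 1.87 FPKM (SD, n = 6), while Kcnj2 at 11.2 ± 2.41 FPKM (SD, n = 6) and Kcne1 at 10.1 ± 3.41 FPKM (SD, n = 6) again overlapped. The leading genes of the sham heart thus encode a leak channel, an accessory subunit, a silent subunit, delayed rectifier pores and inward rectifiers. At the other end of the order, Kcnn4 had 0.292 ± 0.0708 FPKM (SD, n = 6) and Kcnk13 0.198 ± 0.0343 FPKM (SD, n = 6) in sham hearts. After MI these same genes stood at 5.46 ± 2.0 FPKM and 2.01 ± 0.569 FPKM, whereas Kcnip2 stood at 50.1 ± 15.1 FPKM.

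**Figure D1:**
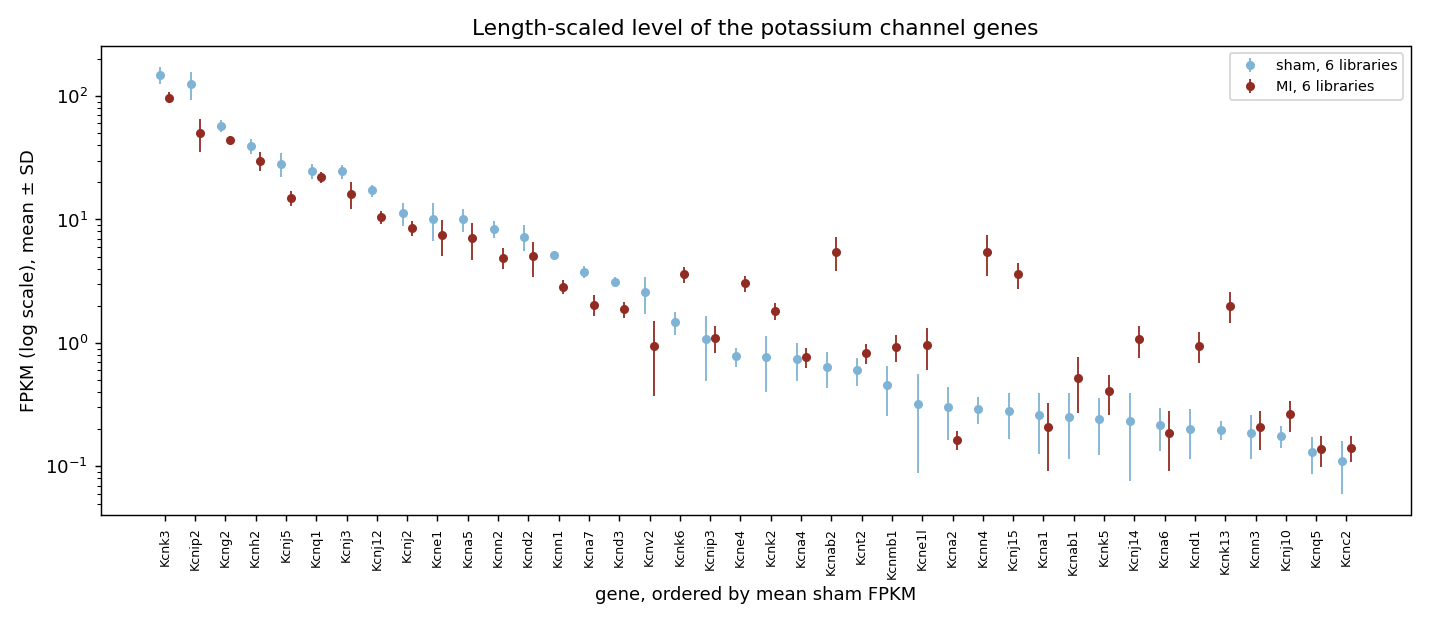
Deposited FPKM (y axis, log scale) of 40 of the 43 genes (x axis, ordered by their mean in sham), as mean and SD over the 6 sham and the 6 MI libraries of both genotypes. The most abundant genes of the sham heart, Kcnk3 and Kcnip2 first, lie lower after MI, and several genes at the low end, among them Kcnn4, Kcnj15, Kcnab2 and Kcnk13, lie higher.

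After MI the family split by direction. In Cre-negative hearts 19 of the 43 genes fell and 8 rose, by edgeR's quasi-likelihood test with Benjamini-Hochberg adjustment over 13678 genes and a threshold of 0.05, and the median log2 fold change was -0.57. Among all genes tested 24.4% fell and 29.9% rose in that comparison, 54.3% in all, with a median of 0.02. In Cre-positive hearts 14 of the 43 fell and 10 rose, with a median of -0.34, against 19.5% and 25.7% of all genes, 45.2% in all, with a median of 0.01. Without Cre-positive sham replicate 2 the counts were 20 lower and 11 higher in Cre-negative and 17 lower and 10 higher in Cre-positive hearts. Shares of all genes without that library are not given here. The authors' deposited tables hold 21 of the 43 as lower and 10 as higher in Cre-negative hearts, and 13 as lower and 9 as higher in Cre-positive hearts, against 21.7% lower and 23.3% higher, 45.0% in all, and 13.0% lower and 16.5% higher, 29.5% in all, of the genes with an adjusted p in those tables. DESeq2 gave 20 lower and 10 higher of the 43 in Cre-negative hearts, where it called 55.2% of all genes, and 14 lower and 10 higher in Cre-positive hearts, where it called 46.9%. The genotypes share no library in these comparisons. Both comparisons came from a single fit of all 12 libraries with a shared estimate of spread, so their calls are not independent. Of the genes that fell, 13 were the same in both genotypes (13 of 19 and 13 of 14), and of those that rose, 8 were the same (8 of 8 and 8 of 10). The same overlap over all genes tested was not counted, so these counts have no share to be set beside. On log2(FPKM + 0.1) with limma, a scale on which the median of all genes shifted to 0.26 and 0.25, the split was 11 higher and 15 lower in Cre-negative and 12 higher and 10 lower in Cre-positive hearts. All genes split there into 41.1% higher and 12.8% lower in Cre-negative and 36.8% higher and 7.4% lower in Cre-positive hearts.

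**Figure D2:**
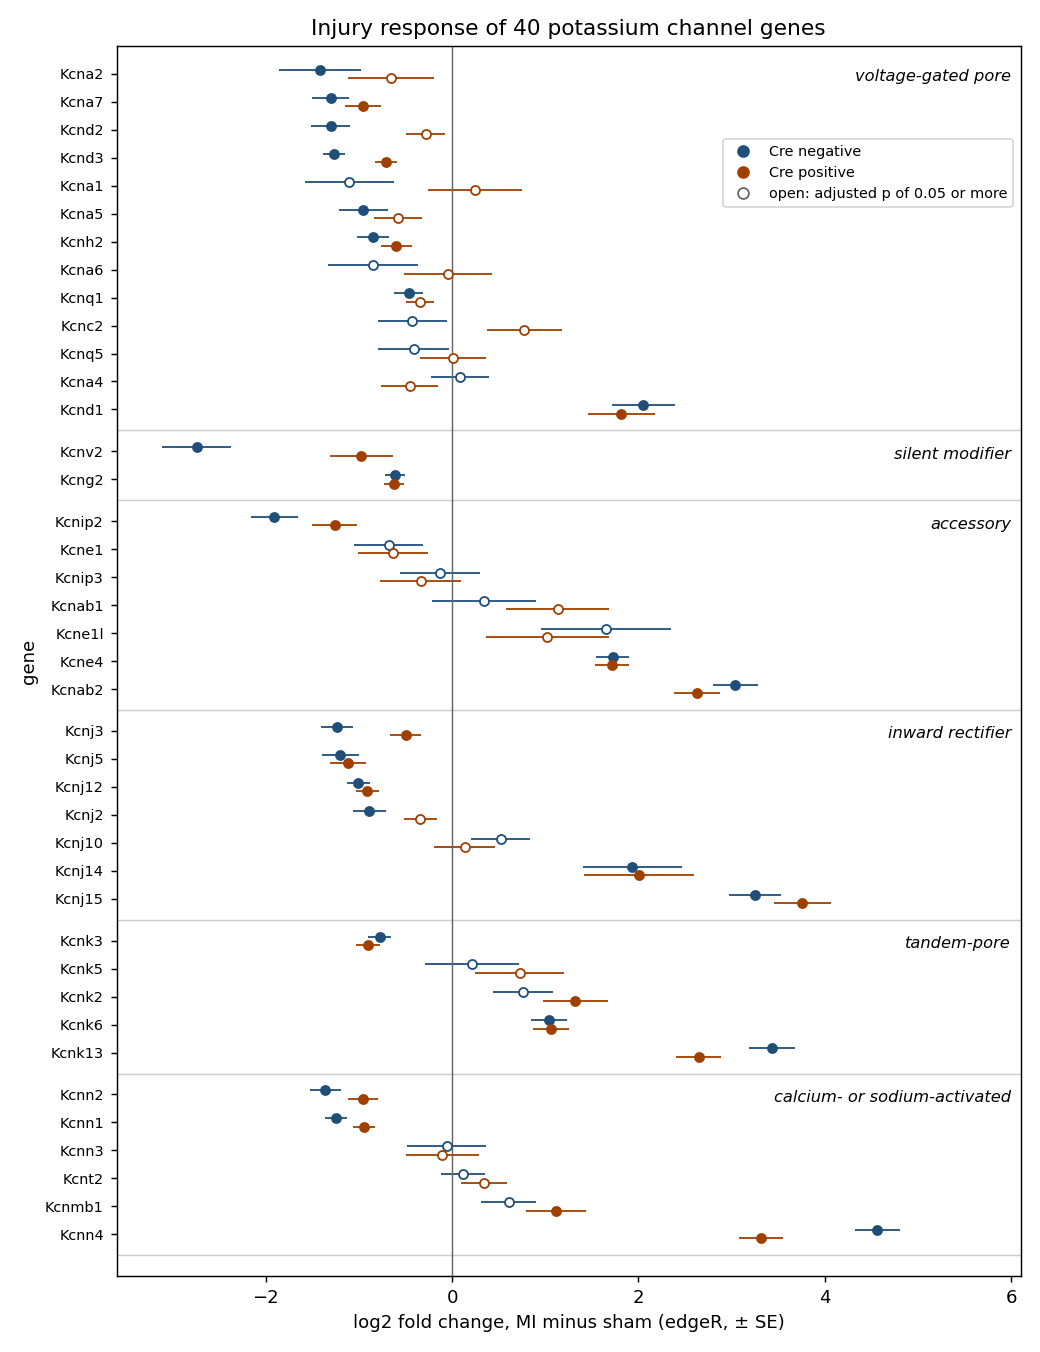
Log2 fold change after MI (x axis, edgeR, bars are SE) for 40 of the 43 genes (y axis, grouped by role) in Cre-negative and Cre-positive hearts. Filled points passed an adjusted p of 0.05, open points did not. Within most roles falling and rising genes stand side by side, from Kcnv2 at -2.74 to Kcnn4 at 4.56 in Cre-negative hearts.

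Of 16 genes listed as carriers or partners of cardiac repolarising currents, 13 fell in Cre-negative hearts and 0 rose, and the median was -0.92 on the log2 scale. In Cre-positive hearts 8 of the 16 fell and 0 rose, with a median of -0.59. Of 10 members listed as known from immune, stromal, vascular or glial cells, 6 rose and 0 fell in Cre-negative hearts (median 1.38), and 8 rose and 0 fell in Cre-positive hearts (median 1.52). Both lists were drawn up with earlier results of these data known, so these splits are not independent support for them. The second list holds Kcnj15, which is known from kidney and other epithelia. Beside the first list, 9 and 6 of the 10 cardiomyocyte markers were called lower in Cre-negative and Cre-positive hearts, with medians of -1.07 and -0.65. Beside the second, 8 of 8 macrophage and monocyte markers were called higher in both genotypes, with medians of 3.01 and 3.03. Of 8 fibroblast markers, 7 were called higher in each genotype.

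Promoter sequences were taken from RefSeq (GRCm38.p6, the same assembly as mm10) for 30 of the 43 genes. They were searched over the 250 bases before the most upstream of the transcript starts that the promoter table lists, on both strands, for short motifs. For 14 of the 30, Kcnn4, Kcnk13, Kcnk2 and Kcnip2 among them, the RefSeq span of the gene begins farther upstream, so that the window lies partly or wholly within the gene, and for 16 it lies outside. The genes without a promoter sequence, which were not searched, included Kcna1, Kcnd1, Kcne1, Kcng2, Kcnj14, Kcnk3, Kcnk6, Kcnn2, Kcnq1 and Kcnv2. The core of the site bound by TEAD factors, through which Yap acts, was spelled CATTCC or GGAATG. It was present in 5 of the 30, Kcna5, Kcne1l, Kcnk13, Kcnk2 and Kcnn4, a share to set beside 12.6% of all 27025 windows. The letters TGANTCA of an AP-1 site were found only in Kcnip3 among the 30, against 6.85% of all windows, the GC box GGGCGG or CCGCCC in 13 of the 30, against 33.0%, and TATAAA or TTTATA in 0 of the 30, against 13.0%. A match describes letters and not a bound site. The windows below are shown because they hold one of these motifs, lie outside the gene's RefSeq span, hold 0 bases of a GENCODE vM21 exon and belong to genes called after MI. Kcna5 carries the TEAD core, and Kcnd2 and Kcnj2 carry GC boxes. All 3 fell in Cre-negative hearts. Each is written 5′ to 3′ on the gene's own strand, and capitals mark the motif.
Kcna5 (chr6:126535556-126535805, minus strand): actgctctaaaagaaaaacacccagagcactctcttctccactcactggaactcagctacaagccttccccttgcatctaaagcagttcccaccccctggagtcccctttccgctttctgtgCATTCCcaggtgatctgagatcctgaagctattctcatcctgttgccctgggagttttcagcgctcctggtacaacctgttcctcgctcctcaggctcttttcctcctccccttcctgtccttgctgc
Kcnd2 (chr6:21215096-21215345, plus strand): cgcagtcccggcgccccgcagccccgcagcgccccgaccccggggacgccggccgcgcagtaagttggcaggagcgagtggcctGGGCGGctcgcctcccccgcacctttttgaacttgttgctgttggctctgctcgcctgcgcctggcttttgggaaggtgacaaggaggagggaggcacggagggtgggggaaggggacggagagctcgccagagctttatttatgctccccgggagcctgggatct
Kcnj2 (chr11:111065914-111066163, plus strand): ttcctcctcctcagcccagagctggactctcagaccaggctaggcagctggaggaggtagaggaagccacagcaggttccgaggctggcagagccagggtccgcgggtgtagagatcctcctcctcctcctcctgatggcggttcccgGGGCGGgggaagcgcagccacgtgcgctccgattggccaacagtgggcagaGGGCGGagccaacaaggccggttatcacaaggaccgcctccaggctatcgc

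Among voltage-gated pore subunits, 9 of 16 fell and 1 rose after MI in Cre-negative hearts, and 5 fell and 1 rose in Cre-positive hearts. Kcnd3 and Kcnd2, the pore subunits of the fast transient outward current, were among those that fell. Counts by role, here and below, stand beside 24.4% lower and 29.9% higher of all genes tested in Cre-negative hearts. In Cre-positive hearts these shares were 19.5% and 25.7%. Kcnd3 (Entrez 56543, chr3:105451890-105674002) was read at 25.7, 23.6 and 23.4 CPM in Cre-negative sham and 9.51, 9.18 and 11.5 CPM in Cre-negative MI. The Cre-positive libraries gave 18.9, 22.5 and 22.1 CPM after sham and 12.7, 13.8 and 12.3 CPM after MI. For Kcnd3 every MI library lay below every sham library in both genotypes. Its log2 fold change was -1.26 ± 0.12 (adjusted p = 4.05e-06) in Cre-negative and -0.71 ± 0.12 (adjusted p = 0.000458) in Cre-positive hearts. The span of Kcnd3 contains part of the antisense RNA Kcnd3os, and whether counting used strand is not given in the sources used here.

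Kcnd2 (chr6:21215346-21729805) stood at 39, 47.8 and 31.6 CPM in Cre-negative sham and 14.7, 14.9 and 18.5 CPM in Cre-negative MI. In Cre-positive hearts it stood at 35.5, 25.5 and 37.4 CPM after sham and 25.9, 34.2 and 20.8 CPM after MI. The Cre-negative MI libraries were all below their sham libraries, while the Cre-positive groups overlapped. Kcnd2 accordingly fell in Cre-negative hearts (-1.30 ± 0.21, adjusted p = 0.000254) and did not pass the test in Cre-positive hearts (-0.28 ± 0.21, adjusted p = 0.288). The third gene of this subfamily went the other way. Kcnd1 was read at 1.03, 0.998 and 0.887 CPM in Cre-negative sham and 4.29, 4.0 and 3.94 CPM in Cre-negative MI. The Cre-positive values were 1.29, 0.55 and 0.309 CPM after sham and 2.24, 3.18 and 2.52 CPM after MI. Kcnd1 rose with no overlap in either genotype, with log2 changes of 2.05 ± 0.34 (adjusted p = 0.000277) and 1.82 ± 0.36 (adjusted p = 0.0014), from a level far below those of Kcnd2 and Kcnd3 per length (0.202 ± 0.0873 FPKM (SD, n = 6) in sham hearts). Without Cre-positive sham replicate 1, its highest library there, the Cre-positive change of Kcnd1 was 2.58 (adjusted p = 0.000114).

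The Kcna genes form the delayed rectifier and slow transient channels of the Shaker class. Kcna5 (chr6:126532551-126535555), which carries the ultra-rapid delayed rectifier, was read at 35.7, 34.2 and 25.1 CPM in Cre-negative sham and 20.7, 13.9 and 14.5 CPM in Cre-negative MI, whereas Cre-positive hearts had 43.5, 34.5 and 25.9 CPM after sham and 31.3, 22.5 and 15.7 CPM after MI. MI libraries lay below sham in the Cre-negative groups only, and the Cre-positive groups overlapped. Its fall was -0.95 ± 0.26 (adjusted p = 0.00882) in Cre-negative hearts, and the Cre-positive value of -0.58 ± 0.26 (adjusted p = 0.0848) did not pass. Without Cre-positive MI replicate 1 the Cre-positive change was -0.86 with an adjusted p of 0.0235, and without Cre-positive sham replicate 3 it was -0.78 with 0.0393. Kcna7, a skeletal and cardiac muscle subunit, was read at 15.5, 15.2 and 13.1 CPM in Cre-negative sham and 4.06, 7.12 and 6.6 CPM in Cre-negative MI. In Cre-positive hearts Kcna7 was read at 15.1, 12 and 15.7 CPM after sham and 7.18, 8.27 and 6.64 CPM after MI. Kcna7 fell with no overlap in both genotypes, with log2 changes of -1.30 ± 0.20 (adjusted p = 0.000147) and -0.95 ± 0.20 (adjusted p = 0.00178).

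Kcna2, best known from axons, was read at 5.83, 4.79 and 3.65 CPM in Cre-negative sham and 2.09, 1.44 and 1.8 CPM in Cre-negative MI. In Cre-positive hearts it was read at 0.804, 4.76 and 3.2 CPM after sham and 1.83, 2.19 and 1.46 CPM after MI, with sham replicate 1 below all 3 MI libraries. Kcna2 fell in Cre-negative hearts (-1.42 ± 0.44, adjusted p = 0.0172) and not by the test in Cre-positive hearts (-0.66 ± 0.46, adjusted p = 0.267). That call was lost with MI replicate 2 of the Cre-negative group left out (adjusted p = 0.0606) or with its sham replicate 1 left out (0.0559), and without Cre-positive sham replicate 1 the Cre-positive change was -1.13 with an adjusted p of 0.00923. Kcna4, which carries the slow transient outward current, had 2.82, 2.6 and 4.34 CPM in Cre-negative sham and 2.96, 3.81 and 3.6 CPM in Cre-negative MI. Its Cre-positive values were 3.06, 6.41 and 4.75 CPM after sham and 4.13, 3.89 and 2.32 CPM after MI, and the groups overlapped throughout. Kcna4 passed in neither genotype, at 0.09 ± 0.31 (adjusted p = 0.834) and -0.45 ± 0.30 (adjusted p = 0.247). Kcna1 and Kcna6, neighbours of Kcna5 on chromosome 6, stayed between 0.58 and 4.33 CPM and passed in neither genotype, although without Cre-negative sham replicate 3 or without Cre-positive MI replicate 2 Kcna1 was called lower in Cre-negative hearts (-1.38, adjusted p = 0.039, and -1.10, adjusted p = 0.0206).

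Kcnh2 (chr5:24319589-24351684) encodes the pore of the rapid delayed rectifier. It was read at 207, 134 and 151 CPM in Cre-negative sham and 92.1, 85.3 and 95 CPM in Cre-negative MI, whereas Cre-positive hearts had 188, 154 and 186 CPM after sham and 125, 133 and 91.6 CPM after MI. All MI libraries lay below all sham libraries of their genotype. Kcnh2 fell, with log2 changes of -0.85 ± 0.17 (adjusted p = 0.00118) in Cre-negative and -0.60 ± 0.17 (adjusted p = 0.0128) in Cre-positive hearts, and the Cre-positive call did not pass without Cre-positive MI replicate 3 (-0.45, adjusted p = 0.0562). Kcnq1 (chr7:143106877-143427050), the pore of the slow delayed rectifier, was read at 93.3, 65.9 and 83.9 CPM in Cre-negative sham and 51.1, 58.3 and 66.7 CPM in Cre-negative MI. Cre-positive hearts had 96.8, 69.6 and 83.5 CPM after sham and 71.8, 65.2 and 59.9 CPM after MI. The Cre-negative groups overlapped by a single pair of libraries, sham replicate 2 and MI replicate 3, and the Cre-positive groups overlapped likewise. Kcnq1 fell in Cre-negative hearts by the test (-0.47 ± 0.15, adjusted p = 0.0231) and not in Cre-positive hearts (-0.34 ± 0.15, adjusted p = 0.0884). The Cre-negative call did not pass without MI replicate 1 (0.0927) or 2 (0.0581) or sham replicate 1 (0.101) or 3 (0.0664) of that genotype, and without Cre-positive sham replicate 2 the Cre-positive change was -0.50 with an adjusted p of 0.0179. The Kcnq1 span also holds the long noncoding RNA Kcnq1ot1.

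Kcnc2 and Kcnq5, at 0.402 to 1.61 CPM in every library, passed in neither genotype.

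**Figure D3:**
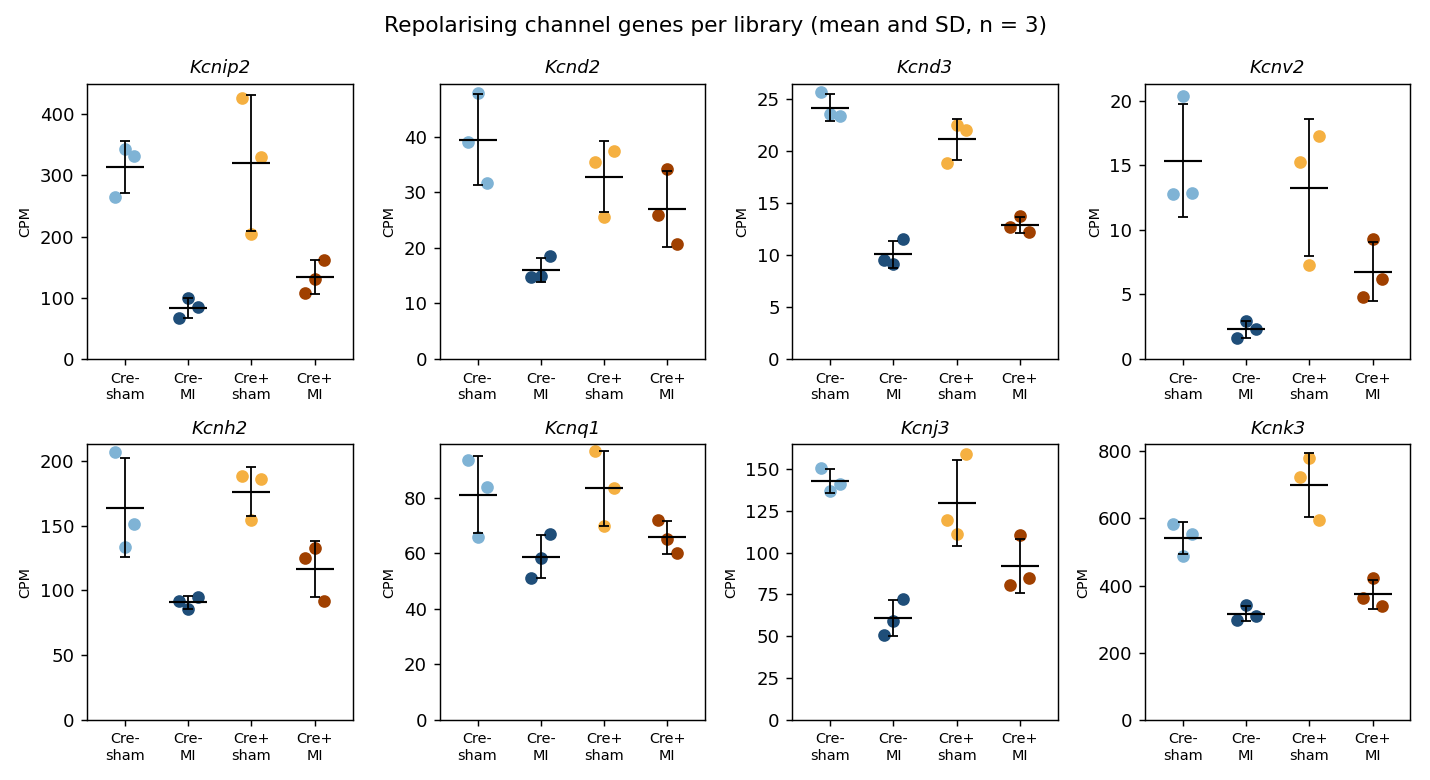
CPM (y axes, from 0) of 8 genes of repolarising currents in each library (points) of the 4 groups (x axes), with the mean and SD of 3 libraries. Kcnd3, Kcnh2 and Kcnk3 show MI libraries below sham libraries in both genotypes. For Kcnip2, Kcnd2, Kcnd3, Kcnv2 and Kcnj3 the Cre-positive MI libraries lie above the Cre-negative MI libraries. Between genotypes after MI 0 of the 43 genes passed by edgeR, and such separation was not counted over all genes.

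Silent subunits form no channel alone and alter the pores they join. Both measured ones, Kcng2 and Kcnv2, fell in each genotype. Kcng2 was read at 182, 145 and 164 CPM in Cre-negative sham and 102, 114 and 106 CPM in Cre-negative MI. In Cre-positive hearts Kcng2 was read at 202, 172 and 199 CPM after sham and 128, 129 and 115 CPM after MI. MI and sham libraries of Kcng2 did not overlap, and its changes were -0.61 ± 0.10 (adjusted p = 0.000405) and -0.62 ± 0.10 (adjusted p = 0.000486). Kcnv2 (Entrez 240595, chr19:27322061-27337179), whose product joins other voltage-gated pores, was read at 12.8, 20.4 and 12.8 CPM in Cre-negative sham and 1.62, 2.94 and 2.33 CPM in Cre-negative MI. In Cre-positive hearts it was read at 15.3, 7.24 and 17.2 CPM after sham and 4.81, 9.26 and 6.17 CPM after MI. The Cre-negative MI libraries lay below every other library, and in Cre-positive hearts sham replicate 2 fell among the MI libraries. Kcnv2 fell by a log2 change of -2.74 ± 0.37 (adjusted p = 6.05e-05) in Cre-negative hearts, the largest fall of the family there, a 6.67-fold lower level. In Cre-positive hearts its log2 change was -0.97 ± 0.34 (adjusted p = 0.0327). Without Cre-positive sham replicate 2 the Cre-positive change was -1.30 (adjusted p = 0.00182). It did not pass without Cre-positive MI replicate 1 (0.116) or 3 (0.094) or without Cre-positive sham replicate 1 (0.0871) or 3 (0.112).

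Accessory subunits went both ways, with 2 of 7 higher and 1 lower in each genotype. Of all genes tested 29.9% and 25.7% were higher, and 24.4% and 19.5% lower, in Cre-negative and Cre-positive hearts. The lower gene was Kcnip2 (Entrez 80906, chr19:45792346-45816422), whose product the transient outward channel needs to reach the membrane. It was read at 265, 343 and 332 CPM in Cre-negative sham and 66.3, 99.3 and 85.3 CPM in Cre-negative MI. Cre-positive hearts gave 427, 204 and 330.0 CPM after sham and 108, 131 and 162 CPM after MI. No MI library reached a sham library of its genotype, and Cre-positive sham replicate 2 was the lowest sham library. Kcnip2 fell, with log2 changes of -1.91 ± 0.25 (adjusted p = 4.84e-05) in Cre-negative and -1.26 ± 0.24 (adjusted p = 0.0013) in Cre-positive hearts, 3.75-fold and 2.39-fold lower levels. Without Cre-positive sham replicate 2 the Cre-positive change was -1.54 (adjusted p = 4.41e-05). A GC box was found in its promoter window, which lies partly or wholly within the gene and is not printed above. The relative Kcnip3 passed in neither genotype (-0.13 ± 0.43, adjusted p = 0.819, and -0.34 ± 0.44, adjusted p = 0.559).

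Kcne1, the partner of Kcnq1, was read at 28.5, 43.1 and 37.9 CPM in Cre-negative sham and 18.2, 31.1 and 19.1 CPM in Cre-negative MI. In Cre-positive hearts Kcne1 was read at 44.7, 14.8 and 38.1 CPM after sham and 17.2, 30.5 and 15.3 CPM after MI. Its groups overlapped, and it passed in neither genotype (-0.68 ± 0.37, adjusted p = 0.143, and -0.64 ± 0.38, adjusted p = 0.188). Cre-positive sham replicate 2 was the lowest library of Kcne1, and without it both genotypes passed (-0.70, adjusted p = 0.0327, and -1.02, adjusted p = 0.0103). Kcne4, which restrains several voltage-gated pores, was read at 2.35, 2.3 and 2.27 CPM in Cre-negative sham and 8.29, 7.18 and 7.4 CPM in Cre-negative MI. Its Cre-positive values were 2.01, 2.29 and 1.44 CPM after sham and 6.57, 6.43 and 6.04 CPM after MI. Kcne4 rose with no overlap and a narrow spread, with log2 changes of 1.72 ± 0.18 (adjusted p = 7.41e-06) and 1.72 ± 0.18 (adjusted p = 1.48e-05), or 3.3-fold in Cre-negative hearts. Kcne1l was at 0 to 2.06 CPM and passed in neither genotype, although without Cre-positive sham replicate 2 its Cre-negative change of 1.63 did (adjusted p = 0.0114).

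Kcnab2 (Entrez 16498, chr4:152390744-152477549), a cytoplasmic beta subunit of Shaker channels that is also read in immune cells, was at 2.35, 2.8 and 3.06 CPM in Cre-negative sham and 25.6, 21.2 and 20.8 CPM in Cre-negative MI. Cre-positive hearts gave 3.3, 1.19 and 2.17 CPM after sham and 15.1, 14 and 12.7 CPM after MI. All 6 MI libraries exceeded all 6 sham libraries. Kcnab2 rose, with log2 changes of 3.04 ± 0.24 (adjusted p = 1.13e-06) and 2.63 ± 0.25 (adjusted p = 6.14e-06), which is 8.23-fold and 6.18-fold. Its span overlaps the protein-coding gene Nphp4. The relative Kcnab1 was read at 1.6, 0.599 and 0.493 CPM in Cre-negative sham and 1.39, 1.31 and 0.734 CPM in Cre-negative MI. In Cre-positive hearts Kcnab1 had 0.885, 0.55 and 0.825 CPM after sham and 2.51, 1.91 and 0.597 CPM after MI. It overlapped between groups and passed in neither genotype (0.35 ± 0.56, adjusted p = 0.625, and 1.13 ± 0.55, adjusted p = 0.115), and without Cre-positive MI replicate 3, its lowest MI library, the Cre-positive change was 1.53 with an adjusted p of 0.0263.

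Of 7 inward rectifiers, 4 fell and 2 rose in Cre-negative hearts, and 3 fell and 2 rose in Cre-positive hearts. Kcnj2 and Kcnj12 carry the current that holds the resting potential of ventricular muscle. Kcnj12 was read at 85.1, 62.9 and 83.8 CPM in Cre-negative sham and 39.8, 36 and 39.8 CPM in Cre-negative MI. In Cre-positive hearts Kcnj12 was read at 92.6, 93.4 and 86.3 CPM after sham and 45.5, 54.3 and 45.1 CPM after MI. Kcnj12 fell with no overlap in both genotypes, with log2 changes of -1.0 ± 0.12 (adjusted p = 2.88e-05) and -0.91 ± 0.12 (adjusted p = 9.14e-05). Kcnj2 was read at 74.3, 76.2 and 78.1 CPM in Cre-negative sham and 33.5, 40.9 and 49.4 CPM in Cre-negative MI, whereas Cre-positive hearts had 54.9, 46.1 and 74 CPM after sham and 39.4, 50.7 and 48 CPM after MI. Its Cre-negative groups were clearly apart, while Cre-positive sham replicate 2 lay among the MI libraries. Kcnj2 fell in Cre-negative hearts (-0.89 ± 0.18, adjusted p = 0.00109), and the Cre-positive value was -0.34 ± 0.18 (adjusted p = 0.133), or -0.52 with an adjusted p of 0.0168 without that sham library.

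Kcnj3 and Kcnj5 together form the acetylcholine-gated channel, which is known best from atrium and pacemaker cells. Kcnj5 was read at 135, 104 and 145 CPM in Cre-negative sham and 54.5, 47.3 and 65.6 CPM in Cre-negative MI. Cre-positive hearts had 121, 201 and 131 CPM after sham and 63.3, 75.2 and 70.8 CPM after MI. Kcnj5 fell with no overlap, with log2 changes of -1.20 ± 0.20 (adjusted p = 0.000266) and -1.11 ± 0.20 (adjusted p = 0.00062). Kcnj3 (chr2:55411798-55598145) was read at 151, 137 and 141 CPM in Cre-negative sham and 50.7, 59.2 and 72 CPM in Cre-negative MI, and at 119, 111 and 159 CPM after sham and 80.5, 110.5 and 84.5 CPM after MI in Cre-positive hearts. The Cre-positive MI libraries lay between the Cre-negative MI and the sham libraries, with replicate 2 just under the lowest sham library. Kcnj3 fell, with log2 changes of -1.24 ± 0.17 (adjusted p = 6.5e-05) in Cre-negative and -0.50 ± 0.17 (adjusted p = 0.0283) in Cre-positive hearts, and the second call did not pass without Cre-positive MI replicate 1 (0.106) or 3 (0.0955) or Cre-positive sham replicate 3 (0.104). Over these groups 5 atrial markers summed to 447 to 521 CPM in Cre-negative sham and 2400 to 3010 CPM in Cre-negative MI, and to 343 to 1330 and 2370 to 3510 CPM in the Cre-positive groups. Of 4 tested atrial markers 1 was called higher and 0 lower in each genotype, with medians of -0.81 and 0.65 and values from -1.15 to 2.55 in Cre-negative hearts, so the markers did not move together.

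Kcnj15 (Entrez 16516, chr16:95257558-95300260), known from kidney and other epithelia, was the inward rectifier with the largest rise. It was read at 1.88, 1.9 and 2.17 CPM in Cre-negative sham and 15.3, 20.0 and 21.6 CPM in Cre-negative MI. Cre-positive Kcnj15 values were 1.37, 0.458 and 1.44 CPM after sham and 11.5, 14.4 and 18.6 CPM after MI. Every MI library was several times above every sham library, and Cre-positive sham replicate 2 was the lowest. Kcnj15 rose, with log2 changes of 3.25 ± 0.28 (adjusted p = 1.95e-06) and 3.76 ± 0.31 (adjusted p = 1.95e-06), 9.52-fold and 13.5-fold. Kcnj14, known from neurons, was read at 0.753, 1.3 and 0.394 CPM in Cre-negative sham and 2.84, 3.56 and 3.0 CPM in Cre-negative MI. In Cre-positive hearts Kcnj14 was read at 0.724, 0 and 0.825 CPM after sham and 2.64, 2.12 and 1.53 CPM after MI, sham replicate 2 holding no read. Kcnj14 rose with no overlap in either genotype, with log2 changes of 1.93 ± 0.53 (adjusted p = 0.00889) and 2.01 ± 0.59 (adjusted p = 0.0148). The second was 1.40 (adjusted p = 0.0153) without Cre-positive sham replicate 2. Kcnj10, the main inward rectifier of glia, was at 1.32, 1.1 and 0.788 CPM in Cre-negative sham and 1.1, 1.94 and 1.6 CPM in Cre-negative MI. Cre-positive hearts had 0.965, 0.916 and 1.24 CPM after sham and 0.881, 1.27 and 1.26 CPM after MI. Kcnj10 passed in neither genotype (0.52 ± 0.32, adjusted p = 0.183, and 0.14 ± 0.33, adjusted p = 0.76), while 8 nerve and glia markers summed to 15.4 to 22.4 CPM in Cre-negative sham and 64.6 to 76.4 CPM in Cre-negative MI, with 3 of 7 tested markers called higher and 0 lower.

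Tandem-pore channels carry background leak, and of 5 measured genes 2 rose and 1 fell in Cre-negative hearts, while 3 rose and 1 fell in Cre-positive hearts. Kcnk3 (Entrez 16527, chr5:30588170-30625270), an acid-sensitive leak channel of heart muscle and vessels, was read at 582, 489 and 554 CPM in Cre-negative sham and 298, 341 and 309.9 CPM in Cre-negative MI. In Cre-positive hearts Kcnk3 was read at 724, 781 and 596 CPM after sham and 362, 422 and 338 CPM after MI. All sham libraries exceeded all MI libraries. Kcnk3 fell, with log2 changes of -0.78 ± 0.13 (adjusted p = 0.000269) and -0.91 ± 0.13 (adjusted p = 0.000127), or 1.71-fold and 1.87-fold, and it remained the most abundant member after MI. No other tandem-pore gene of the 5 fell in either genotype.

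Kcnk13 (Entrez 217826, chr12:99963149-100062682), a channel known from microglia, was read at 0.659, 0.499 and 0.69 CPM in Cre-negative sham and 8.0, 6.06 and 6.2 CPM in Cre-negative MI. Cre-positive Kcnk13 values were 0.885, 0.641 and 0.619 CPM after sham and 5.15, 4.52 and 4.05 CPM after MI. Kcnk13 rose with no overlap, with log2 changes of 3.43 ± 0.25 (adjusted p = 5.28e-07) and 2.65 ± 0.24 (adjusted p = 4.65e-06), 10.8-fold and 6.25-fold. Kcnk6, which is known to act in macrophages, was at 5.46, 7.89 and 7.1 CPM in Cre-negative sham and 15.4, 15 and 11.5 CPM in Cre-negative MI. Its Cre-positive values were 6.11, 8.06 and 4.95 CPM after sham and 14, 11.9 and 14.2 CPM after MI. Kcnk6 rose in both genotypes, with log2 changes of 1.04 ± 0.20 (adjusted p = 0.000744) and 1.06 ± 0.20 (adjusted p = 0.000913). Kcnk2, a stretch-sensitive channel of muscle and fibroblasts, was at 3.39, 4.29 and 3.35 CPM in Cre-negative sham and 6.03, 6.81 and 5.87 CPM in Cre-negative MI. In Cre-positive hearts Kcnk2 was at 3.62, 0.916 and 1.55 CPM after sham and 4.95, 4.74 and 5.91 CPM after MI, with sham replicates 2 and 3 the lowest of all 12 libraries. MI libraries exceeded sham libraries in both genotypes, and Kcnk2 passed in Cre-positive (1.32 ± 0.35, adjusted p = 0.00807) but not in Cre-negative hearts (0.76 ± 0.32, adjusted p = 0.0639). Without Cre-positive sham replicate 1 or 2 the Cre-negative value passed as well (0.74 each, adjusted p = 0.0067 and 0.0184). Replicate 1 was the highest Cre-positive sham library of Kcnk2, and leaving it out moved the Cre-positive change to 2.08 (adjusted p = 9.99e-05). Kcnk5 passed in neither genotype (0.22 ± 0.50, adjusted p = 0.738, and 0.72 ± 0.48, adjusted p = 0.241).

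Of 6 genes of calcium- or sodium-activated channels 1 rose and 2 fell in Cre-negative hearts, and 2 rose and 2 fell in Cre-positive hearts. Kcnn4 (Entrez 16534, chr7:24369826-24385212) encodes the intermediate-conductance channel known from macrophages, lymphocytes and proliferating fibroblasts. It was read at 0.376, 0.599 and 0.591 CPM in Cre-negative sham and 15.5, 11.1 and 10.9 CPM in Cre-negative MI. In Cre-positive hearts it was read at 0.724, 0.641 and 0.825 CPM after sham and 7.38, 6.86 and 7.76 CPM after MI. The sham libraries stood only a little above the floor of 3 counts, and the MI libraries lay above them without overlap. Kcnn4 rose, with log2 changes of 4.56 ± 0.24 (adjusted p = 1.09e-07) in Cre-negative and 3.32 ± 0.23 (adjusted p = 8.09e-07) in Cre-positive hearts, 23.7-fold and 9.97-fold.

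Kcnn1 and Kcnn2 encode small-conductance channels found in heart muscle and neurons. Kcnn2 was read at 30.6, 22.8 and 34.7 CPM in Cre-negative sham and 11.1, 10.7 and 12.5 CPM in Cre-negative MI, whereas Cre-positive hearts had 25.9, 29.9 and 34.8 CPM after sham and 16.6, 16.5 and 13.6 CPM after MI. Kcnn1 was read at 23.1, 24.4 and 21.9 CPM in Cre-negative sham and 8.52, 10.7 and 9.94 CPM in Cre-negative MI, whereas Cre-positive hearts had 22.2, 24.1 and 21.7 CPM after sham and 12.1, 10.5 and 12.7 CPM after MI. Both genes fell with no overlap and a small spread. The log2 changes of Kcnn2 were -1.36 ± 0.17 (adjusted p = 2.66e-05) and -0.95 ± 0.16 (adjusted p = 0.000524). Those of Kcnn1 were -1.25 ± 0.12 (adjusted p = 3.97e-06) and -0.94 ± 0.12 (adjusted p = 4.99e-05). The endothelial relative Kcnn3 was at 1.13, 1.1 and 1.58 CPM in Cre-negative sham and 0.696, 1.25 and 1.73 CPM in Cre-negative MI. In Cre-positive hearts Kcnn3 was at 2.73, 1.1 and 1.86 CPM after sham and 1.22, 2.19 and 1.93 CPM after MI, and the groups overlapped. Kcnn3 passed in neither genotype (-0.06 ± 0.43, adjusted p = 0.918, and -0.11 ± 0.39, adjusted p = 0.847).

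Kcnmb1, the beta subunit of the large-conductance channel of smooth muscle, was at 3.01, 3.0 and 2.07 CPM in Cre-negative sham and 3.19, 4.56 and 4.6 CPM in Cre-negative MI. Its Cre-positive values were 1.77, 0.733 and 1.75 CPM after sham and 2.78, 2.69 and 3.78 CPM after MI. The MI libraries lay above the sham libraries in both genotypes. Kcnmb1 passed in Cre-positive hearts (1.11 ± 0.32, adjusted p = 0.0135) and not in Cre-negative hearts (0.61 ± 0.29, adjusted p = 0.0974). The first call was lost without Cre-positive MI replicate 3 (0.94, adjusted p = 0.0577), and without Cre-positive sham replicate 2, its lowest library, the Cre-negative value of 0.58 passed (adjusted p = 0.0485). Kcnmb1 lies within the span of Kcnip1, itself at a mean of 4.17 counts. Over these groups 7 smooth muscle and pericyte markers summed to 1470 to 1550 CPM in sham and 1000 to 1050 CPM in MI libraries of Cre-negative hearts, and to 1210 to 1410 and 1050 to 1190 CPM in those of Cre-positive hearts. Most of the 7 did not follow their sum, since 4 were called higher and 2 lower in Cre-negative hearts (median 0.435) and 3 higher and 1 lower in Cre-positive hearts (median 0.22). The sodium-activated Kcnt2 passed in neither genotype (0.12 ± 0.23, adjusted p = 0.691, and 0.34 ± 0.24, adjusted p = 0.278).

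**Figure D4:**
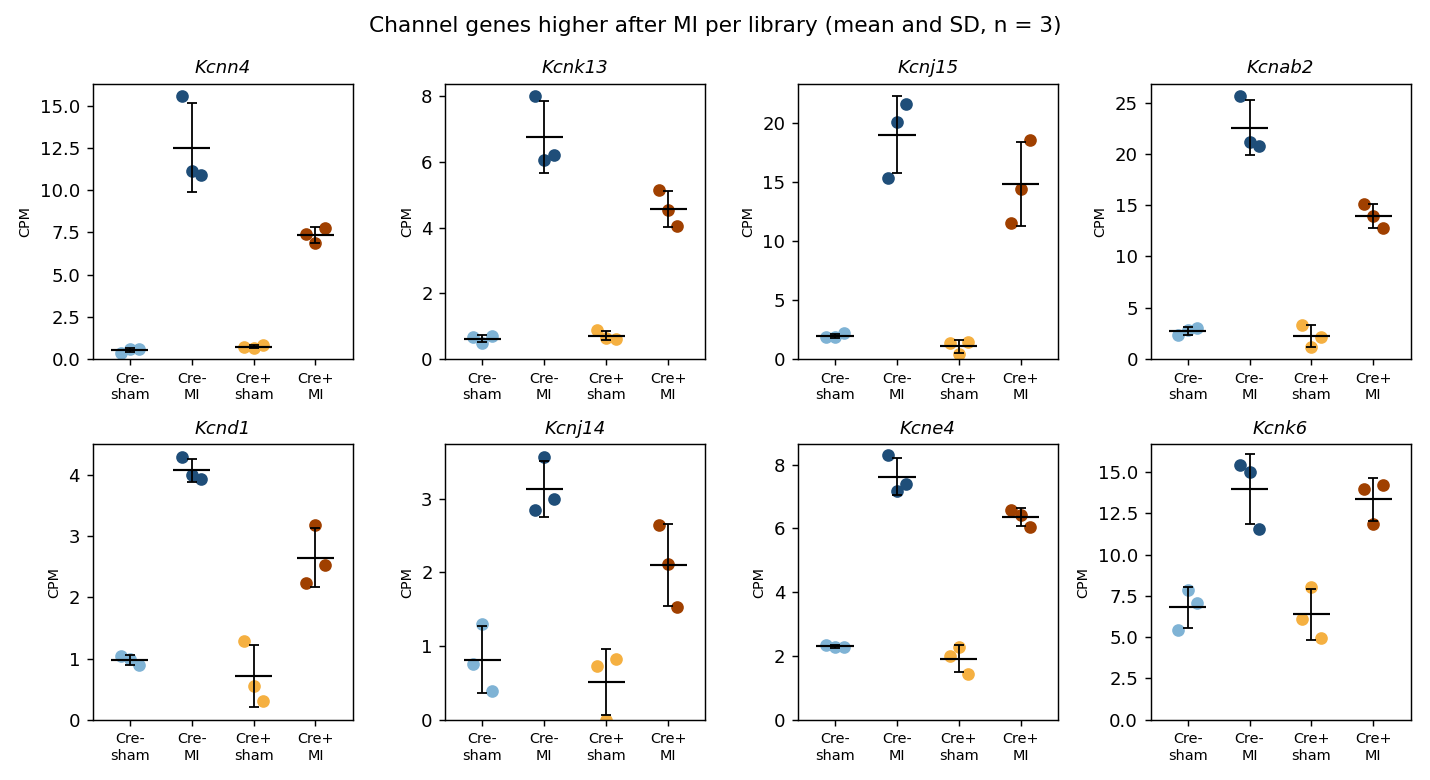
CPM (y axes, from 0) of the 8 genes called higher after MI in both genotypes, in each library (points) of the 4 groups (x axes), with the mean and SD of 3 libraries. Every MI library lies above every sham library of its genotype. For Kcnn4, Kcnk13, Kcnab2, Kcnd1, Kcnj14 and Kcne4 the Cre-negative MI libraries lie above the Cre-positive MI libraries, and for Kcnj15 and Kcnk6 they overlap. By edgeR 0 of the 43 genes passed between genotypes after MI. How often libraries of all genes lie apart in this way was not counted.

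Genes outside the family that bind, traffic or regulate potassium channels, or act beside them, were read from a list of 26, of which 22 were tested. In Cre-negative hearts 14 of the 22 fell and 1 rose, with a median of -0.55, and in Cre-positive hearts 12 fell and 1 rose, with a median of -0.37. Of all genes tested 24.4% fell and 29.9% rose in Cre-negative hearts, and 19.5% fell and 25.7% rose in Cre-positive hearts. Lrrc10, a cardiac leucine-rich repeat protein, fell from 340 to 153 CPM in Cre-negative hearts (-1.15 ± 0.18, adjusted p = 0.000192) and from 336 to 215 CPM in Cre-positive hearts (-0.64 ± 0.18, 0.0115). Amigo1, an auxiliary protein of voltage-gated channels, fell in both genotypes (-0.82 ± 0.15, 0.000641, and -0.93 ± 0.15, 0.000345), as did the ubiquitin ligase Nedd4l (-0.45 ± 0.10, 0.0027, and -0.55 ± 0.10, 0.000994). The pacemaker channel gene Hcn4 fell in both genotypes (-0.85 ± 0.29, 0.0255, and -0.86 ± 0.30, 0.0329).

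Genotypes were then compared within each surgery. After MI, 0 of the 43 genes passed by edgeR, as did 0.0% of all genes tested, and 11 of the 43 had an unadjusted p under 0.05, against 12.6% of all genes. DESeq2 called 2 of the 43, Kcnv2 higher and Kcnn4 lower in Cre-positive hearts, where it called 1.13% of all genes. Of the 43, 6 had an adjusted p under 0.05 in the authors' deposited table, against 4.44% of its genes. With Cre-positive sham replicate 2 left out, edgeR again called 0 of the 43, the adjusted p of Kcnv2 being 0.0592. The 5 genes with the smallest p by edgeR were Kcnn4, Kcnv2, Kcnj3, Kcnd2 and Kcnab2.

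Kcnn4 averaged 7.33 ± 0.457 CPM (SD, n = 3) in Cre-positive and 12.5 ± 2.63 CPM in Cre-negative MI hearts (-0.77 ± 0.17, adjusted p = 0.205). Kcnv2 averaged 6.75 ± 2.28 against 2.30 ± 0.656 CPM (1.55 ± 0.37, adjusted p = 0.224). Kcnj3 averaged 91.9 ± 16.3 against 60.7 ± 10.7 CPM (0.60 ± 0.17, adjusted p = 0.251). The injury-raised Kcnn4 was lower and the injury-lowered Kcnv2 and Kcnj3 were higher in the Cre-positive MI libraries, without passing the adjusted threshold. The injury change in Cre-negative hearts and this comparison share the 3 Cre-negative MI libraries, with opposite sign. The opposite directions are therefore partly built in and are not an independent result. Kcnd2 averaged 26.9 ± 6.78 against 16.0 ± 2.15 CPM (0.75 ± 0.21, adjusted p = 0.252). Kcnab2 averaged 13.9 ± 1.18 against 22.5 ± 2.68 CPM (-0.69 ± 0.20, adjusted p = 0.264). The authors' deposited table gives Kcnv2 a log2 fold change of 1.57 (adjusted p = 0.000446), Kcnab2 -0.68 (0.00194), Kcnip2 0.69 (0.00253), Kcnd2 0.77 (0.00453), Kcnj3 0.61 (0.00496) and Kcnn4 -0.76 (0.0121). For Kcnip2 edgeR gave 0.68 ± 0.24 (adjusted p = 0.299).

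Across the list of repolarising currents 14 of 16 genes had a log2 fold change above 0 between genotypes after MI, with a median of 0.34, where 48.7% of all genes were above 0. Of the immune, stromal, vascular and glial list 1 of 10 was above 0, with a median of -0.38. These counts use the same Cre-negative MI libraries as the injury changes of the lists, so they are not independent of those. Between genotypes after MI the 10 cardiomyocyte markers were all above 0 (median 0.39) and the 8 macrophage and monocyte markers all below 0 (median -0.44). Between genotypes after sham the 8 macrophage and monocyte markers were likewise all below 0 (median -0.46). Of the 10 cardiomyocyte markers 2 were above 0 after sham (median -0.05). Sex was uneven over the groups, with reads of Y-linked genes in 2 of the 3 sham and all 3 MI libraries of Cre-negative hearts, and in 0 of the 3 sham and 1 of the 3 MI libraries of Cre-positive hearts. With sex as a term in the fit, the injury calls that did not pass included those of Kcnj3 (adjusted p = 0.0589) and Kcnv2 (0.0647) in Cre-positive hearts. The part of the marker differences in the channel values was not tested.

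After sham surgery 0 of the 43 genes passed by edgeR, against 0.0512% of all genes, and 7 of the 43 had an unadjusted p under 0.05, against 8.22% of all genes. DESeq2 and the authors' deposited table called 0 of the 43, with 0.263% and 0.0727% of all their genes. The smallest p-values were those of Kcnk3, Kcnmb1, Kcnj15, Kcnk2 and Kcnj2. Kcnk3 averaged 700.3 CPM in Cre-positive and 542 CPM in Cre-negative sham hearts, with no overlap (0.37 ± 0.13, adjusted p = 0.582). Kcnmb1 averaged 1.42 and 2.69 CPM (-0.92 ± 0.33, adjusted p = 0.582), Kcnj15 1.09 and 1.98 CPM (-0.86 ± 0.37, adjusted p = 0.598), Kcnk2 2.03 and 3.68 CPM (-0.82 ± 0.36, adjusted p = 0.599) and Kcnj2 58.3 and 76.2 CPM (-0.39 ± 0.17, adjusted p = 0.601). Of the low-level genes among these, Cre-positive sham replicate 2 was the lowest library of Kcnmb1, Kcnj15 and Kcnk2.

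The interaction of surgery and genotype, which tests whether the response to MI differed, passed for 0 of the 43 genes by edgeR, as for 0.0% of all genes, and for 0 of the 43 by DESeq2, which called 0.168% of all genes. Of the 43, 7 had an unadjusted p under 0.05, against 8.16% of all genes. The 5 smallest were Kcnv2 (1.76 ± 0.50, adjusted p = 0.552), Kcnd2 (1.02 ± 0.30, adjusted p = 0.552), Kcnd3 (0.55 ± 0.17, adjusted p = 0.552), Kcnn4 (-1.25 ± 0.38, adjusted p = 0.552) and Kcnj3 (0.74 ± 0.23, adjusted p = 0.553). A positive value here means a smaller fall, and the negative one of Kcnn4 a smaller rise, in Cre-positive hearts. Genes called in 1 genotype only, such as Kcnd2 and Kcnj2, were therefore not shown to respond differently. The comparison of genotypes after MI and this interaction share their MI libraries, so the values of these genes are not independent of those above.

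The deposited files also give for each gene a transcript length weighted by the estimated abundance of its isoforms, which moves when the isoform mix moves. Of 15 members whose length varied between libraries, 2 had no overlap between the 6 sham and the 6 MI libraries and means at least 50 bases apart, 13.3%, against 2.53% of the 5226 genes with a varying length. They were chosen after their values were seen. Kcnh2 had lengths of 3917, 3822 and 3854 bases in Cre-negative sham and 3787, 3783 and 3695 bases after MI. In Cre-positive hearts Kcnh2 had 3902, 4016 and 3961 bases after sham and 3715, 3718 and 3704 bases after MI. The 6 MI libraries were all shorter than the 6 sham libraries, with means of 3734 and 3912 bases. Kcnn2 had 3161, 3357 and 3208 bases in Cre-negative sham and 2937, 3077 and 2950 bases after MI. In Cre-positive hearts Kcnn2 had 3162, 3248 and 3292 bases after sham and 2818, 2963 and 2979 bases after MI. Its MI libraries were again all shorter, by 284 bases in the mean. Each of these genes has 2 transcripts in the authors' annotation, and the counts used above sum over them.

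**Figure D5:**
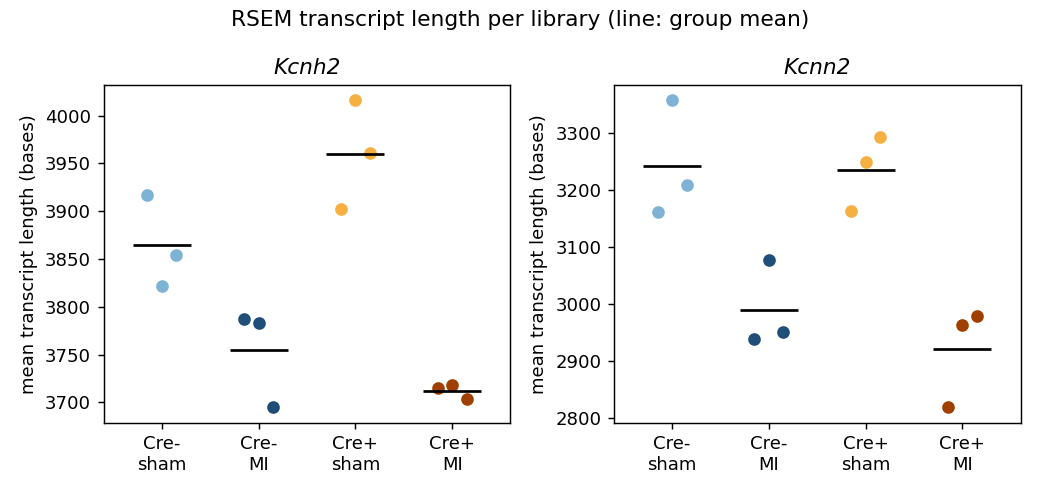
RSEM transcript length in bases (y axes, not from 0) of Kcnh2 and Kcnn2 in each library (points) of the 4 groups (x axes), lines being group means. The 6 MI libraries lie below the 6 sham libraries for both genes, at 3695 to 3787 against 3822 to 4016 bases for Kcnh2.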

How the data were processed

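RNA of 12 mouse left ventricles was sequenced, 3 in each of 4 groups taken from the sample titles. By the record in the submitters' processing notes, Bowtie2 2.2.5 and RSEM 1.2.12 were used with the mm10 build. The authors deposited, per the file headers, RSEM expected counts, FPKM (fragments per unit of transcript length and of library size) and an abundance-weighted transcript length per gene and library, a joined FPKM table, and 4 comparison tables holding log2 fold changes, p-values with adjusted p-values, and a group signal value of no stated unit that was not used here. Whether counting used strand is not given in the sources used here, and 21 of the 43 genes overlap another RefSeq gene.

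Genes missing from a library's list were set to 0 and expected counts were rounded to whole numbers. In R 4.3.3, edgeR 4.0.16 removed genes of low count with filterByExpr (minimum count 10), leaving 13678 and removing 3793, scaled libraries by TMM, and fitted all 12 libraries by quasi-likelihood with a coefficient for each group. Two-sided p-values were adjusted after Benjamini and Hochberg over every gene tested in a contrast, and a gene was called under 0.05. The error beside a log2 fold change is its standard error, and CPM values are TMM-scaled. The exact permutation test of a single gene, 3 against 3, cannot give a p below 0.1 and was not used. The fit was tested on simulated data. Floors cover counting error only.

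The labels do not tie equal replicate numbers across groups, and the main fit did not pair them. Alternatives were RLE and upper quartile scaling, no filter on low counts, a mean count of at least 50, DESeq2 1.42.0, limma 3.58.1 on log2(FPKM + 0.1) and log2(FPKM + 1), only the 2 groups compared, a replicate block, sex as a term, and leaving out each library. The genes and lists were chosen with earlier results of these data known. Values in every library are given for the lists of repolarising currents and of other cell types, for up to 8 called genes with the largest change per direction and contrast, for the 5 with the smallest p where no gene was called, and for the 10 with the highest sham FPKM. From the list of partners up to 3 called genes per direction were named by p. Some genes that these rules choose are counted in the totals and not reported singly here. Hcn4 and the genes described by transcript length fall outside this rule and were chosen after their values were seen.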

Additional observations from a re-analysis of the deposited data

How the results depend on the processing

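Of the 27 calls after MI in Cre-negative hearts 22 passed in all 21 refits, and of the 24 in Cre-positive hearts 18 did, and no called gene changed sign. The stricter minimum of 50 counts, which leaves genes out and refits nothing, is not among the 21. The calls lost at least once included those of Kcna2, Kcna5 and Kcnq1 in Cre-negative and of Kcnh2, Kcnj3, Kcnmb1 and Kcnv2 in Cre-positive hearts. On log2(FPKM + 1) with limma 9 genes were lower and 10 higher in Cre-positive hearts, and 15 lower and 11 higher in Cre-negative hearts. Of all 13678 genes, 1110 were lower and 4984 higher there in Cre-positive hearts. In Cre-negative hearts 1829 were lower and 5687 higher. The medians of all genes on that scale were 0.185 and 0.2. Between genotypes after MI DESeq2 called 1 gene higher and 1 lower, with adjusted p-values of 0.00824 for Kcnv2 (log2 fold change 1.56) and 0.0457 for Kcnn4 (-0.77). Leaving out each library in turn gave 8 to 11 higher and 16 to 20 lower in Cre-negative hearts, 10 higher and 9 to 17 lower in Cre-positive hearts, with 9 without Cre-positive MI replicate 3 and 17 without Cre-positive sham replicate 2, and 0 to 0 in the other contrasts. At a mean count of at least 50, 25 genes were left, of which 18 fell and 5 rose in Cre-negative and 13 fell and 6 rose in Cre-positive hearts. This minimum also averages over all 12 libraries, so it too admits genes high after MI more readily. The share of all genes called at that minimum was not counted. Deviations from the group mean in same-numbered libraries of different groups correlated at r from -0.154 to 0.288 (18 pairs, median 0.02). Libraries of different number gave r from -0.309 to 0.22 (36 pairs, median -0.005), and 5 of 12 libraries correlated best with their own number. With 3 libraries a group, these values cannot decide whether equal numbers mark paired samples. A replicate block gave 19 lower and 8 higher in Cre-negative and 14 lower and 10 higher in Cre-positive hearts. Under it Kcna5 passed in Cre-positive hearts (-0.60, adjusted p = 0.00526). Shares of all genes called are not given here for the refits with a block or without a library. Genes near 10 counts are limited by depth, since 3 counts were up to 0.292 CPM.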
